A study of Homo sapiens with 20 samples.

Results

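Imprinted genes are transcribed mainly from the copy inherited from one parent, the other copy being held silent through DNA methylation set in the germ line. Many of them act on fetal growth, and several are abundant in fetal liver and fall after birth. Loss of the parental mark can leave both copies active or both silent, and counts that do not separate the copies cannot tell these states from ordinary regulation. The genes followed here are 10 imprinted genes outside the 15q11 cluster, chosen by name, each matched to 1 of the 24222 entries of the count table: H19, IGF2, CDKN1C, PLAGL1, MEST, PEG10, NNAT, MEG3, DLK1 and PEG3.

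The study sequenced messenger RNA of 20 established human biliary tract cancer cell lines, 1 library each, all grown in the same serum-containing medium with no treatment. The groups are 7 gallbladder lines, 5 extrahepatic and 4 intrahepatic bile duct lines, 3 lines of the ampulla of Vater, and OZ, which carries both duct labels and was left out of comparisons of sites. By origin, 13 lines came from primary tumours and 7 from metastatic material, 6 of them from ascites and 1, Mz-ChA-2, from liver. The line is the replicate, so every spread is a spread between lines, a line is 1 tumour adapted to culture, and no genotype is given.

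Levels are CPM, that is counts scaled to a fixed library total, after TMM scaling of library sizes. They are not divided by transcript length, so they order lines within a gene and not genes against each other. A gene is called on in a line at 1 CPM or more, at the floor at 3 counts or fewer (0.202 to 0.288 CPM, depending on the line) and a trace in between. Of the 200 values of a gene in a line, 103 were on, 22 were traces and 75 were at the floor. Library totals ran from 10.47 M to 15.41 M counts, and intervals given for single lines are exact Poisson 95% intervals, which cover counting error only. In bulk RNA, fewer expressing cells and less RNA per cell cannot be told apart.

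Mz-ChA-2, HuH28 and SNU-245 held 17, 14 and 13 of the 63 entries in the whole table whose highest line was at 100 CPM or more and at least 50 times the next. Of 12 biliary epithelial markers, 10 were on in Mz-ChA-2 and 6 in HuH28, and their summed level was 2750 and 449 CPM there against a median of 7777 CPM over the 20 lines. KRT7, a duct keratin, was at 0.232 CPM in Mz-ChA-2, and EPCAM, an epithelial adhesion molecule, at 0.243 CPM in HuH28, both at the floor. Low sums were not particular to these lines, since G415 had 8 of the 12 on and a sum of 899 CPM, and TGBC2TKB all 12 on and 2148 CPM. The fit of IGF2 by origin, which rests on Mz-ChA-2, and that of MEST along the score, which rests on HuH28, are given with and without that line.

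The sequences below belong to the members whose state differed between lines. They are the 250 bases before an annotated start, from RefSeq on GRCh38.p14, with each CpG, the dinucleotide that carries the imprint, in capitals. The count table rests on hg19 or GRCh37, per the submitters' processing notes, and no position was converted between builds. Windows exist for 4 of the 10 genes. They were matched by gene symbol, so the start behind a window need not be that of the counted entry, which was not checked. H19, the RNA made from the maternal copy at 11p15, has 1 (chr11:2001267-2001516, minus strand). PLAGL1 has 5, and the one shown (chr6:144008260-144008509, minus strand) holds the most CpG of them. MEST also has 5, and the one shown (chr7:130491835-130492084, plus strand) shares the highest CpG count with another. MEG3 has 3 that overlap, and the first is shown (chr14:100825858-100826107, plus strand).
H19: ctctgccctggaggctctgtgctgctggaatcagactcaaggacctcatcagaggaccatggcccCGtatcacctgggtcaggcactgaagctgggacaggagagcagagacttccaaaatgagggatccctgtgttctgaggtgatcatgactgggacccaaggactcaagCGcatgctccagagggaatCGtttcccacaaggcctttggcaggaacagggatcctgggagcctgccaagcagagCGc
PLAGL1: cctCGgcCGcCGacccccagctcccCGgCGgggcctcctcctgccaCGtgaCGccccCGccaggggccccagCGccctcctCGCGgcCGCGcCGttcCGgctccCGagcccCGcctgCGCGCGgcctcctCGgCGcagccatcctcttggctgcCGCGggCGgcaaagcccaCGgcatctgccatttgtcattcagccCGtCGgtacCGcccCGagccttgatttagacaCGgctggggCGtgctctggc
MEST: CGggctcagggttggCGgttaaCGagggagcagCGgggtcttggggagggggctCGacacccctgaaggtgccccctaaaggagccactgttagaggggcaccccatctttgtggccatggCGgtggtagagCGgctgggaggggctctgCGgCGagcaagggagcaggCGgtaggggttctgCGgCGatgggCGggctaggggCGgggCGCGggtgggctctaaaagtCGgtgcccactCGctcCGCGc
MEG3: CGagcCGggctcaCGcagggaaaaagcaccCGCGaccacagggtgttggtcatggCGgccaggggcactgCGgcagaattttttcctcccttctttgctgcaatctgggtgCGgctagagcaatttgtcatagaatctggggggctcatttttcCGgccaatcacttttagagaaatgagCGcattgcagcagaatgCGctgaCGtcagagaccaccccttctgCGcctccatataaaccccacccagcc

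The windows held 4 CpG for H19, 13 for MEG3, 20 for MEST and 32 for PLAGL1, against a median of 11 over 35116 RefSeq windows of the same length. As many CpG or more were present in 70.7% of all windows for H19, 46.6% for MEG3, 32.4% for MEST and 9.52% for PLAGL1. The MEST and PLAGL1 windows were picked for their CpG count, so their shares are low in part by that choice. The other PLAGL1 windows held 21, 1, 3 and 1 CpG. TGCCGC, the core of the motif read by the imprint-protecting zinc finger protein ZFP57, was searched on both strands and overlaps no other motif searched. It occurred 2 times in the PLAGL1 window shown, in none of the other PLAGL1 windows, and 1 time in that of MEG3. Of all windows, 12.7% held it, 594 of the 35116 at least 2 times. The MEST window shown held none, while the one with the same CpG count (chr7:130486097-130486346) held 1. TGACGTCA, the cyclic AMP response element, reads the same on both strands. It occurred 1 time in the MEG3 window and in 1.65% of all windows.

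H19 and MEST also carry a microRNA inside their transcript, shown because its host is one of the genes that varied most between lines. Seeds (bases 2 to 8) are in capitals, and the 4 arms have 4 different seeds.
hsa-miR-675-5p (H19): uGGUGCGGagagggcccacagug
hsa-miR-675-3p (H19): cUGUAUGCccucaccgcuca
hsa-miR-335-5p (MEST): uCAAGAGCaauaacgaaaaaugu
hsa-miR-335-3p (MEST): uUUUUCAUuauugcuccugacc
The entries of both hairpins had 0 counts in all 20 lines. Mature microRNAs were not measured by these libraries, so host levels say nothing here of the arms themselves.

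**Figure D1:**
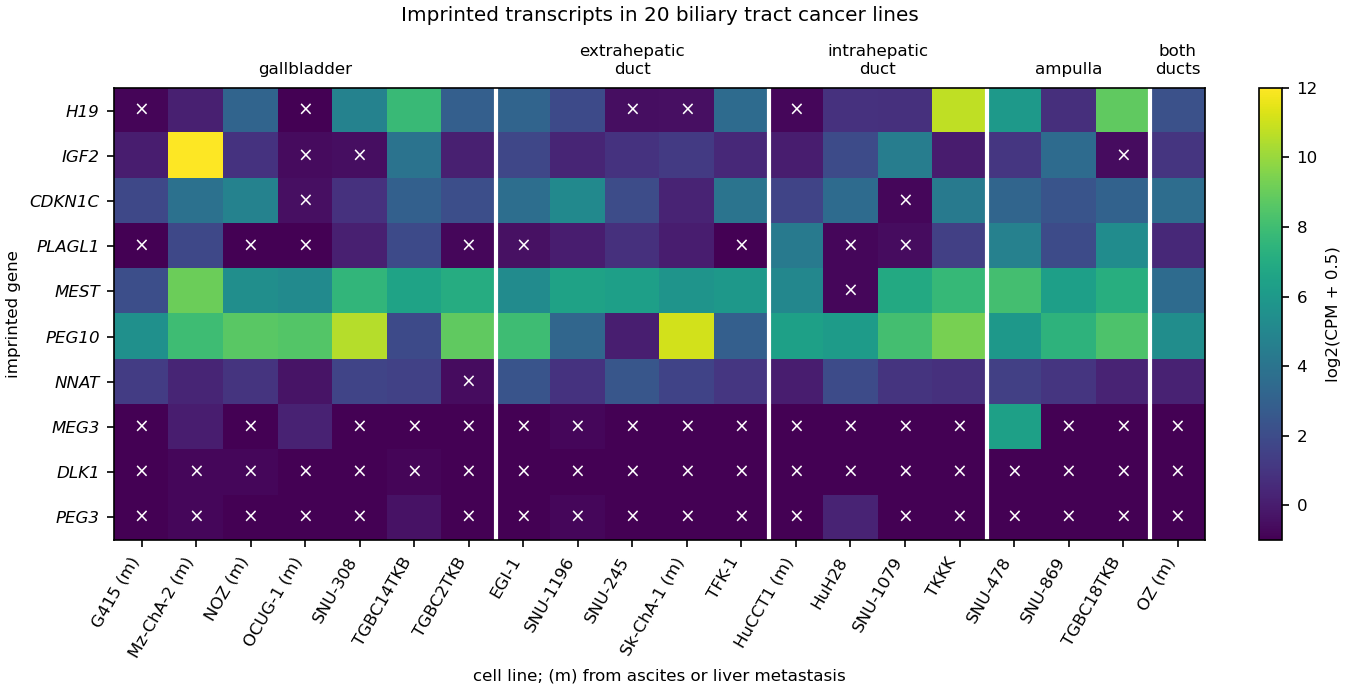
Log2(CPM + 0.5) of the 10 imprinted genes (rows) in 20 lines (columns, grouped by anatomical site); × marks values at the floor of 3 counts or fewer. MEST and PEG10 were on in 19 lines each, whereas DLK1 and PEG3 were on in none.

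H19, IGF2 and PLAGL1 switched, in the sense of being on in at least 3 lines and at the floor in at least 3, which held for 3762 entries of the table (15.5%). MEST and PEG10 were on in 19 of 20 lines, CDKN1C in 17 and NNAT in 14. MEG3, DLK1 and PEG3 were off nearly throughout. No member was on in every line, while 10055 entries (41.5%) were. The spread between lines, as the SD of log2(CPM + 0.5), exceeded that of 99.3% of entries that are on in at least 1 line for H19, 97.9% for PEG10, 97.8% for IGF2 and 92.3% for MEST. The median SD of those 18323 entries was 0.80, against 3.42 for H19 and 2.86 for IGF2. The lines had between 2 and 8 members on, with OCUG-1 lowest and SNU-478, an ampullary line, highest.

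H19 is a non-coding RNA of the maternal copy of 11p15, abundant in fetal liver and reactivated in some tumours. It was on in 14 lines, a trace in Mz-ChA-2 and at the floor in 5. The lowest line was OCUG-1 at 0 counts, the median 3.68 CPM and the highest TKKK, an intrahepatic line, at 1719.8 CPM (95% interval 1696 to 1744). TGBC18TKB followed at 461 CPM and TGBC14TKB at 223 CPM, so 3 lines of 3 different sites and 1 repository, RIKEN, stood above the rest. The next, SNU-478 and SNU-308, were at 64.8 and 27.1 CPM. Sites overlapped: medians were 64.8 CPM in ampullary, 7.04 in gallbladder, 3.24 in extrahepatic and 1.28 in intrahepatic lines. The edgeR quasi-likelihood test over the 4 sites gave an adjusted p of 0.531 for H19. The line highest for H19 had the lowest summed level of 20 cycling genes, 755 CPM in TKKK against a median of 3831 CPM, with 15 of the 20 lowest there. TGBC18TKB, the second for H19, was 17th of 20 in that sum at 1866 CPM, and TGBC14TKB, the third, was 8th at 4127 CPM. The part of cycling in the H19 level was not tested.

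By origin, H19 was on in 12 of 13 primary lines (0.192 to 1719.8 CPM, median 8.78) and in 2 of 7 metastatic lines (0 to 8.78 CPM, median 0.223). The exception among primary lines was SNU-245, and the 2 metastatic lines with H19 on were NOZ at 8.78 CPM and OZ at 4.13 CPM, so the groups overlapped. Primary lines near the threshold were HuH28 (95% interval 0.740 to 2.10 CPM), SNU-1079 (0.705 to 2.08) and SNU-869 (0.661 to 1.95), whose intervals include 1 CPM. At a threshold of 5 CPM, HuH28, SNU-1079, SNU-869, SNU-1196 (3.24 CPM) and OZ would not be on. A difference in the share of lines on at least this large, in either direction, was found for 30 of 24222 entries (0.124%), a count set up after the H19 values were seen. Those 24222 include 10055 entries on in every line and 5899 on in none, which cannot differ. In the edgeR fit the log2 difference was -6.59 (SE 2.02), with an adjusted p of 0.454 over 14843 entries. That fit called no entry in either direction (0%), and 1147 had an unadjusted p under 0.05. DESeq2 gave -5.29 (SE 1.14, adjusted p = 0.00146) after replacing the H19 counts of TKKK (20412 by 72) and NOZ (116 by 82) as outliers. It called 154 entries lower in metastatic lines, 1.04% of those tested. Adjusted p ran from 0.00146 to 0.946 over the alternatives, and the sign was negative in all 27.

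Repositories bear on this contrast. Among RIKEN lines, the 2 metastatic ones, G415 and HuCCT1, had 1 H19 count each (0.0731 and 0.0873 CPM), while the 4 primary ones were on at 7.04 to 1719.8 CPM. Among HSRRB lines the 1 primary line, HuH28, had 1.29 CPM, and the 3 metastatic ones ran from 0 to 8.78 CPM with 2 on, so the split was not seen there. KCLB and DSMZ supplied primary lines only and Zurich metastatic lines only. With repository as a covariate the log2 difference was -6.20 (SE 2.87, edgeR adjusted p = 0.946). That fit took DSMZ and Zurich together, and between these lines origin and repository cannot be told apart. The summed level of biliary epithelial markers was 449 to 14624 CPM in primary and 899 to 10485 CPM in metastatic lines, and that of cycling genes 755 to 5828 and 2877 to 7630 CPM. Their part in the H19 difference was not tested.

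**Figure D2:**
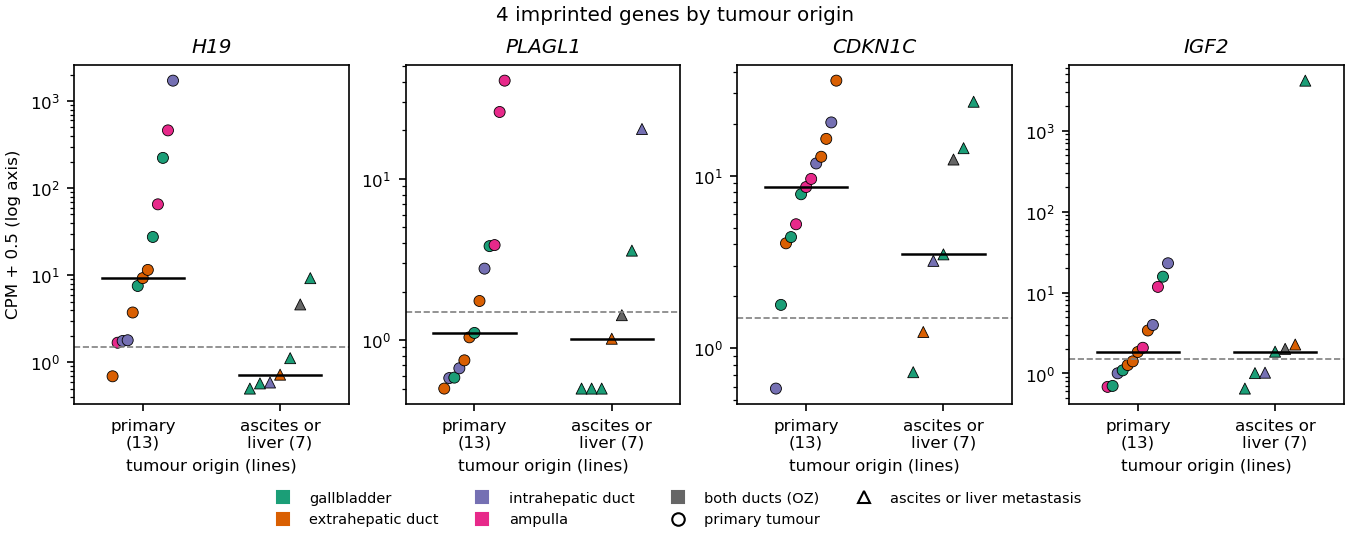
CPM + 0.5 (log axis) of H19, PLAGL1, CDKN1C and IGF2 in 13 primary and 7 metastatic lines; each symbol is a line coloured by site, bars are medians and the dashed line is 1 CPM. H19 was on in 12 of 13 primary lines, with HuH28, SNU-1079 and SNU-869 close to 1 CPM, and in 2 of 7 metastatic lines. The single IGF2 point at 4158 CPM is Mz-ChA-2.

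IGF2, the fetal insulin-like growth factor made from the paternal copy next to H19, was low in all lines but one. It was on in 11 lines, a trace in 6 and at the floor in 3 (OCUG-1, SNU-308 and TGBC18TKB), with a median of 1.35 CPM. Mz-ChA-2 held 4158 CPM (95% interval 4123 to 4193), or 53839 of its 12296380 counts, a share of 0.438% (Wilson 95% interval 0.434% to 0.442%). That was 185 times the next line, SNU-1079 at 22.5 CPM, followed by TGBC14TKB at 15.2 and SNU-869 at 11.3 CPM. All other lines were at 3.48 CPM or less. A single line this far above the rest was seen for 63 of 24222 entries (0.26%), 17 of them with Mz-ChA-2 as that line. INS-IGF2, a read-through entry that overlaps IGF2, had the same count as IGF2 in 12 lines and 51079 counts in Mz-ChA-2. The entries share reads. Equal counts are what counting each shared read for both entries would give, but the sources used here do not state the setting. INS-IGF2, at 3945 CPM in Mz-ChA-2 and 22.1 CPM in SNU-1079, meets the same single-line rule. The locus is therefore counted more than once among the 63 entries and the 17 of Mz-ChA-2. INS, the insulin gene next to them, had 0 counts in Mz-ChA-2.

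The difference of IGF2 by origin rested on that line. Medians were 1.36 CPM in metastatic and 1.34 CPM in primary lines, while the edgeR log2 difference was 7.01 (SE 1.70, adjusted p = 0.273). Without Mz-ChA-2 it was -2.27 (SE 1.03, adjusted p = 0.490). In DESeq2, which replaced the Mz-ChA-2 count by 18 and the SNU-1079 count of 268 by 17, it was -1.60 (SE 0.77, adjusted p = 0.422). Over the 4 sites the adjusted p was 0.313 in edgeR. The lowest IGF2 values were 0.151 CPM in gallbladder, 0.184 in ampullary, 0.506 in intrahepatic and 0.771 in extrahepatic lines, and the ranges of all 4 sites overlapped.

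Mz-ChA-2 was also the line highest for fetal liver markers and for 4 of the 15 other genes listed for the IGF axis (IGF2BP1, HMGA2, LIN28A and LIN28B). All 6 fetal liver markers other than the members were highest there, with a summed level of 2556 CPM against 0.519 to 45.2 CPM in the other 19 lines. GPC3, an oncofetal surface proteoglycan, stood at 1777 CPM (median 0.181), TTR, the transthyretin carrier, at 465 CPM (median 0), and AFP, alpha-fetoprotein, at 24.9 CPM (median 0). ALB, the albumin gene, was at 9.34 CPM there. IGF2BP1, an RNA-binding protein of fetal tissue that binds IGF2 messenger RNA, was at 522 CPM against a median of 11.7. HMGA2, a chromatin protein of fetal growth, was at 476 CPM (median 58.3), and LIN28B, which blocks let-7 maturation, at 68.0 CPM (median 0). DLK1, which marks fetal liver progenitors, had 1 count in Mz-ChA-2, and H19 8 counts. How many of all entries were highest in Mz-ChA-2 was not counted. What moved IGF2 in this line was not tested.

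**Figure D3:**
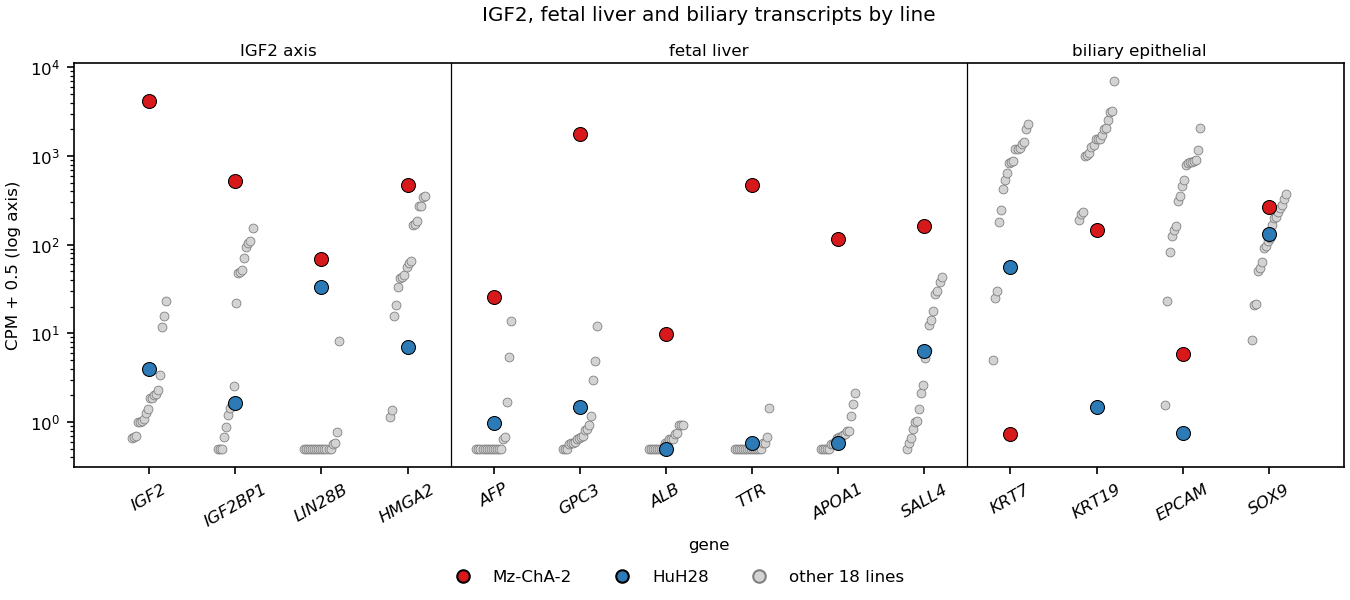
CPM + 0.5 (log axis) of genes of the IGF2 axis, fetal liver markers and biliary epithelial markers, 1 symbol per line. Mz-ChA-2 (red) is highest for the 4 axis genes shown and the 6 fetal liver markers and lowest for KRT7, while HuH28 (blue) is lowest for KRT19 and EPCAM. Apart from IGF2, the axis genes shown are among the 4 of 15 listed that were highest in Mz-ChA-2, and the others are not drawn.

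Of 15 axis genes measured, 7 were on in every line, among them IGF1R, the signalling receptor, at 42.3 to 628 CPM, and INSR, the insulin receptor, at 1.12 to 96.9 CPM. None of the axis genes tested differed over sites (0 of 12) or by origin (0 of 11), where the edgeR fits called 0.00602% and 0% of entries. IGF2R, itself imprinted in mouse and a clearance receptor for IGF2, was on in all lines at 87.8 to 650 CPM. PAPPA, a protease that frees IGF from its binding proteins, was on in 8 lines and reached 88.0 CPM in OCUG-1. IGF1 was on in 2 lines, with 34.1 CPM in HuH28.

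H19 and IGF2 were both on in 8 lines, H19 alone in 6, IGF2 alone in 3 and neither in 3 (OCUG-1, G415 and HuCCT1). The line highest for H19, TKKK, had 6 IGF2 counts (0.506 CPM), and TGBC18TKB had 2 (0.184 CPM). The line highest for IGF2, Mz-ChA-2, had 0.618 CPM of H19. Only TGBC14TKB was above 10 CPM for both, at 223 CPM of H19 and 15.2 CPM of IGF2. Over 20 lines Pearson's r of log2(CPM + 0.5) was -0.18 (permutation p = 0.435, Benjamini-Hochberg adjusted 0.653 over 6 pairs of neighbouring genes) and Spearman's rho -0.05 (permutation p = 0.821, adjusted 0.915). Without TKKK and TGBC18TKB, the lines farthest from the median of H19, r was -0.04 and rho 0.21. Within the 6 KCLB lines r was -0.48 and within the 6 RIKEN lines 0.22, with adjusted exact permutation p of 0.633 and 0.869. There rho was -0.31 and -0.37, so among RIKEN lines r and rho differed in sign.

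**Figure D4:**
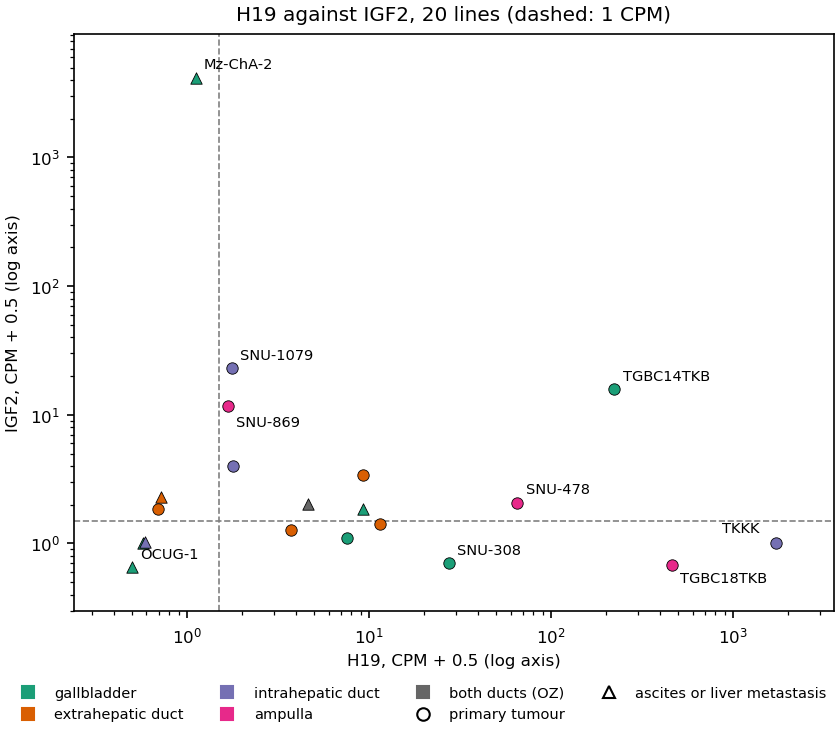
IGF2 against H19 in 20 lines, CPM + 0.5 on log axes; colours give the site, triangles mark lines from ascites or liver metastasis and dashed lines 1 CPM. The 3 lines highest for H19 lie to the right and Mz-ChA-2, alone at 4158 CPM of IGF2, at the upper left.

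CDKN1C, the maternally expressed cyclin-dependent kinase inhibitor p57 from the second imprinted domain of 11p15, was on in 17 lines. It ran from 0.0840 CPM (1 count) in SNU-1079 to 34.9 CPM in SNU-1196, with a median of 7.68 CPM. OCUG-1 had 3 counts and Sk-ChA-1 10 counts (0.742 CPM), so low lines came from 3 different sites. Medians were 8.08 CPM in primary and 2.996 CPM in metastatic lines with full overlap (log2 difference -0.26, SE 0.80, edgeR adjusted p = 0.968). CDKN1B, the related inhibitor p27, was on in every line at 44.8 to 170 CPM, and CDKN1A, p21, at 3.09 to 268 CPM. KCNQ1OT1, the paternal antisense RNA whose transcription silences CDKN1C in cis, was on in 18 lines, with 0 counts in TGBC2TKB and 1 in TFK-1, where CDKN1C was at 3.90 and 15.8 CPM. Across the 20 lines r between them was -0.05 (permutation p = 0.847, adjusted 0.939), and rho was -0.03 (permutation p = 0.915, adjusted 0.915). KCNQ1OT1 lies antisense within KCNQ1, and no strand setting for the counting is stated, so their reads may be mixed. With PHLDA2, a growth-restricting neighbour on in all lines at 10.3 to 164 CPM, r was 0.21 (permutation p = 0.379, adjusted 0.653) and rho 0.14.

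PLAGL1, a zinc finger transcription factor that restrains growth and is made from the paternal copy of 6q24, was on in 8 lines, a trace in 4 and at the floor in 8. The highest were TGBC18TKB at 40.2 CPM, SNU-478 at 25.5 CPM and HuCCT1 at 19.9 CPM, and every other line was at 3.38 CPM or less. All 3 ampullary lines had it on, at 40.2, 25.5 and 3.38 CPM (SNU-869). All 12 gallbladder and extrahepatic lines were lower after TMM scaling. The nearest, TGBC14TKB at 3.33 CPM, had a 95% interval that overlapped that of SNU-869, and their order rests on the scaling. TGBC14TKB had 47 counts of 13.22 M and SNU-869 43 of 12.5 M, so with unscaled totals TGBC14TKB is not the lower. Intrahepatic lines ran from 0.0809 to 19.9 CPM and overlapped the ampullary ones. Non-overlap of this kind after TMM scaling, counted only because it was noticed in these values, was shared by 28 of 24222 entries (0.116%). For PLAGL1 it hangs on the order of SNU-869 and TGBC14TKB and is a description only. The edgeR test over sites gave an adjusted p of 0.387 for PLAGL1. By origin it was on in 6 of 13 primary and 2 of 7 metastatic lines (log2 difference -0.80, SE 1.44, adjusted p = 0.944), and the sign turned without TGBC18TKB (0.14) and with repository (1.53) or site (0.88) as a covariate. HYMAI, the non-coding RNA that shares its imprinted start region, was on in no line, with 4 counts each in TGBC18TKB and SNU-478 as its highest.

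MEST, an alpha/beta hydrolase family gene made from the paternal copy of 7q32, was on in 19 lines. Its range was 3.80 CPM in G415 to 544 CPM in Mz-ChA-2, with a median of 80.0 CPM over all 20, and the exception was HuH28 with 1 count (0.0809 CPM). Loss in exactly 1 line with expression in the other 19 was seen for 291 entries (1.2%), 46 of them lost in HuH28. The genes beside MEST were present in HuH28, with CEP41 at 21.8 CPM and COPG2 at 22.7 CPM against medians of 24.04 and 20.3. No correlation of MEST with COPG2 passed the test (r = -0.02, permutation p = 0.939, adjusted 0.939; rho = 0.13, permutation p = 0.579, adjusted 0.869). Site medians lay between 60.4 CPM (extrahepatic) and 143 CPM (ampullary), and the adjusted p over sites was 0.890 in edgeR.

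Among the 3 members tested along the epithelial to mesenchymal axis, MEST came closest to a relation with it. The score, the mean of 30 epithelial minus that of 30 mesenchymal genes, was lowest in HuH28 (-11.12) and highest in SNU-245 (5.29). The limma slope of MEST was 0.33 log2 units per unit of score (SE 0.10, r = 0.57), with p = 0.00438 and adjusted p = 0.0612 over 11936 entries. That fit called 3.52% of entries toward the epithelial and 2.97% toward the mesenchymal end and none of the 3 members tested (MEST, PEG10 and CDKN1C). The slope rested on HuH28: without it, it was 0.10 with an adjusted p of 0.703. Without Mz-ChA-2 it was 0.38 (adjusted p = 0.0154), where 3.32% of entries were called toward the epithelial end. MEST was also called with a prior count of 0.5 and without OZ or TGBC2TKB, where 3.51%, 3.13% and 2.9% of entries were called that way. Slopes were -0.21 (SE 0.15, adjusted p = 0.454) for PEG10 and 0.13 (SE 0.10, adjusted p = 0.514) for CDKN1C. Of the IGF axis, IGF2R (slope -0.14, SE 0.03, adjusted p = 0.0140) was called toward the mesenchymal and IRS2, an insulin receptor adaptor, toward the epithelial end (0.34, SE 0.07, adjusted p = 0.00697), 2 of 9 tested, against 3.52% and 2.97% of all entries.

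PEG10, a retrotransposon-derived gene with gag and pol reading frames made from the paternal copy of 7q21, was on in 19 lines over a wide range. Sk-ChA-1, an extrahepatic line, held 2229.7 CPM (95% interval 2205 to 2255) and SNU-308 1494 CPM, against a median of 208 CPM. SNU-245 was lowest with 6 counts (0.576 CPM, 95% interval 0.211 to 1.25), followed by TGBC14TKB at 3.33, TFK-1 at 7.09 and SNU-1196 at 9.33 CPM. The 5 extrahepatic lines thus held both the highest value and 3 of the 4 lowest, and the adjusted p over sites was 0.956 in edgeR. By origin the log2 difference was 0.76 (SE 1.03, adjusted p = 0.907), and it was -0.52 without Sk-ChA-1.

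PEG10 moved with SGCE, the epsilon-sarcoglycan gene that starts beside it in the opposite direction and is imprinted in the same sense. Over 20 lines r was 0.71 (permutation p = 0.00054, adjusted 0.00324 over 6 pairs) and rho 0.69 (permutation p = 0.00102, adjusted 0.00612). Without TGBC14TKB and SNU-245, the lines farthest from the median of PEG10, r was 0.64 (adjusted permutation p = 0.0229), and without any single line it stayed between 0.55 and 0.80. Within the 6 KCLB lines r was 0.86 and within the 6 RIKEN lines 0.50, with adjusted exact permutation p of 0.15 and 0.869. SGCE had 1 count (0.0960 CPM) in SNU-245, the line lowest for PEG10, against 4.404 to 145 CPM elsewhere. Flanking genes were present in SNU-245, with CASD1 at 26.3 CPM, BET1 at 36.5 CPM and PPP1R9A at 10.9 CPM. SNU-478 departed from the relation, with 61.2 CPM of PEG10 and 4.404 CPM of SGCE.

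**Figure D5:**
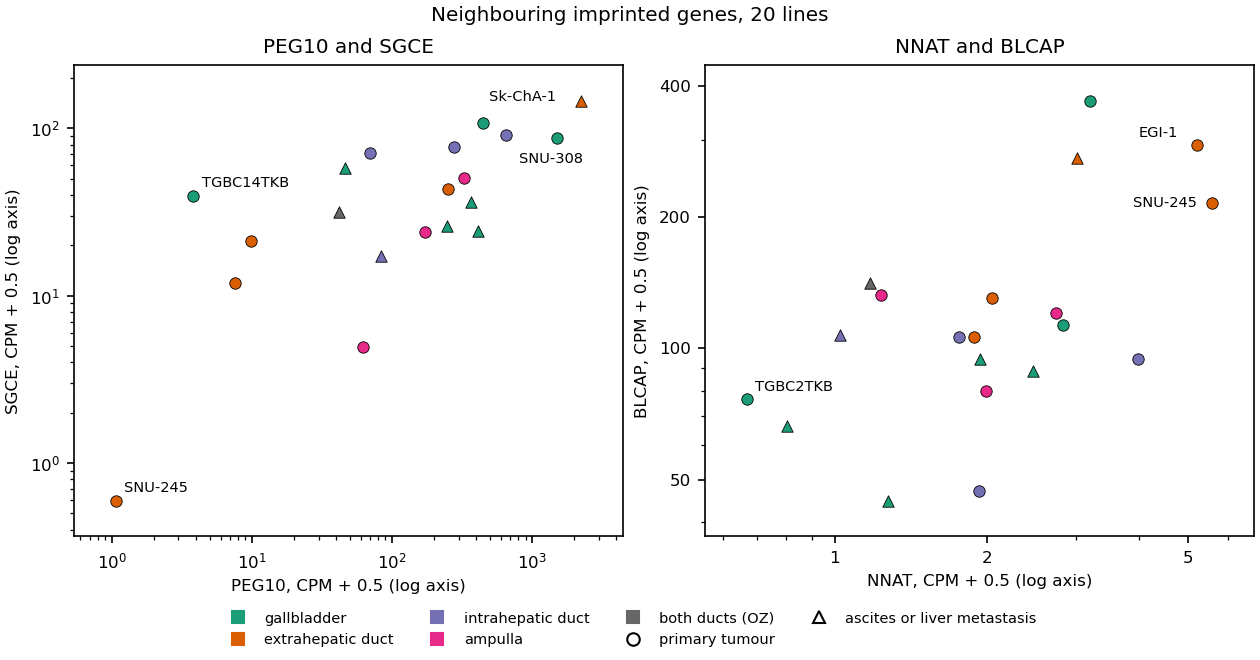
Left, SGCE against PEG10, and right, BLCAP against NNAT, as CPM + 0.5 on log axes in 20 lines coloured by site. PEG10 and SGCE were both lowest in SNU-245 and both highest in Sk-ChA-1; NNAT spans only 0.170 to 5.09 CPM.

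NNAT, the proteolipid neuronatin made from the paternal copy of 20q11, was detected at low level. It was on in 14 lines, a trace in 5 and at the floor in TGBC2TKB (2 counts), with a median of 1.47 CPM and a highest value of 5.09 CPM in SNU-245. Its spread exceeded that of 52.7% of entries. NNAT lies inside an intron of BLCAP, which was on in all lines at 44.3 to 368 CPM, and without a stated strand setting reads of the host's precursor RNA may be counted for it. The pair gave r = 0.58 (permutation p = 0.00685, adjusted 0.0205) and rho = 0.52 (permutation p = 0.0191, adjusted 0.0573). Without SNU-245 and TGBC2TKB, farthest from the NNAT median, r was 0.53 (adjusted permutation p = 0.0703), and without EGI-1 it was 0.51 (adjusted permutation p = 0.0796). By origin the median was 1.55 CPM in primary and 0.772 CPM in metastatic lines (log2 difference -0.91, SE 0.54, edgeR adjusted p = 0.708).

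MEG3, the growth-restraining non-coding RNA of the maternal copy of 14q32, was on in 1 line. SNU-478 held 1018 counts, 84.6 CPM (95% interval 79.5 to 90.0), the next were OCUG-1 with 9 and Mz-ChA-2 with 7 counts, and the other 17 lines were at the floor, 16 of them at 0. Further maternal RNAs of the same cluster were highest in SNU-478 too, with MEG9 at 7.98 CPM and 1 of the 2 entries of MEG8 at 1.58 CPM, each on in no other line. DLK1, the paternally expressed Notch-related membrane protein of the cluster, was at the floor in all 20 lines with 3 counts in all. RTL1, a paternally expressed gene there, was on in SNU-869 at 8.66 CPM, where MEG3 had 0 counts. DIO3, the thyroid hormone deiodinase gene of the cluster, was on in TGBC14TKB at 2.34 CPM, in SNU-478 at 1.83 CPM and in TFK-1 at 1.12 CPM. PEG3, a paternally expressed zinc finger gene of 19q13, was on in no line, with 9 counts in HuH28 (0.728 CPM) and 4 in TGBC14TKB. Its neighbour ZIM2 was on in no line either. Being on in no line held for 5899 entries (24.4%), so the state of DLK1 and PEG3 was a common one. Neither passed the filters of the 3 fits as reported here, and MEG3 did not either. With a total of at least 10 counts as the filter, MEG3 and PEG3 entered all 3 fits and neither was called, while DLK1 was not tested in any.

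Of the 7 members in the edgeR fits of sites and of origin, none was called, while DESeq2 called H19 by origin (above). The site fit called 1 of 16615 entries (0.00602%), with 1771 at an unadjusted p under 0.05, while DESeq2 called 312 entries over sites and limma-voom 0. In the edgeR site fit, unadjusted p for the members ran from 0.00696 (IGF2) to 0.876 (CDKN1C). In the edgeR origin fit it ran from 0.000502 (IGF2, resting on Mz-ChA-2) to 0.867 (MEST), with H19 at 0.00384. The median log2 difference by origin was -0.26 over the 7 members and -0.02 over the 14843 entries tested.

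Of 39 other imprinted genes listed, 36 were measured. PHLDA2, SLC22A18, GRB10, COPG2, BLCAP, GNAS, IGF2R and HM13 were on in all lines, ZIM2, MESTIT1, HYMAI and AIRN in none. Of the 36, 13 switched as H19 did, against 15.5% of all entries. ZNF331, a zinc finger gene, had the widest range, from 0 to 595 CPM, and was at the floor in 8 lines. NLRP2, a gene of the oocyte and embryo complex that protects imprints, was at the floor in 8 lines and highest in Mz-ChA-2 at 241 CPM. TFPI2, a protease inhibitor next to the PEG10 cluster, was at the floor in 11 lines and highest in TGBC2TKB at 260 CPM. PPP1R9A, a neighbour of PEG10, had 4 lines at the floor and 150 CPM in TKKK. None of 25 tested was called over sites and none of 22 by origin. Along the score IGF2R was the 1 of 11 called, where 2.97% of all entries were called in its direction and 3.52% in the other.

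Most of the factors listed for setting, keeping or removing the marks of imprints were on in every line. Of 19 measured, 14 were on in all lines, as were 41.5% of all entries, and 4 were on in none. Those on in all lines included DNMT1, the maintenance methyltransferase, at 33.4 to 448 CPM, and UHRF1, which guides it, at 11.04 to 114 CPM. TRIM28, the co-repressor of imprint-binding zinc finger proteins, was another, at 151 to 816 CPM. CTCF, the insulator protein that binds between H19 and IGF2, ran from 36.2 to 127 CPM. ZNF445, which protects imprints with ZFP57, ran from 21.7 to 92.5 CPM, whereas ZFP57 was on in no line, with 0.588 CPM at most. DNMT3L, DPPA3 and CTCFL, germ line factors, were on in no line either. TET1, a methylcytosine oxidase, varied most, from 0.0742 CPM in Sk-ChA-1 to 19.9 CPM in Mz-ChA-2. None of 15 tested was called over sites, by origin or along the score.

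The entries whose pattern over the 20 lines was most like each member were found among those past the count filter, as a description with no test. They share libraries and depth with the member. For H19 these were COA5, SOS1 and JDP2 (r 0.77, 0.76 and 0.74). For IGF2, where Mz-ChA-2 sets the value, they were CPSF6, LINC00641 and ZNF670 (r 0.87, 0.86 and 0.84, rho 0.47, 0.34 and 0.51). For MEST, where HuH28 with 1 count lies far below the rest, they were TSPAN13, EPB41 and HMGN3 (r 0.88, 0.86 and 0.84, rho 0.81, 0.61 and 0.74). No r without HuH28 for MEST, or without Mz-ChA-2 for IGF2, was computed. For PEG10 they were NBPF1 and PAQR3 (r 0.78 and 0.76), and for CDKN1C UBALD1, NCK2 and NDOR1 (r 0.84, 0.70 and 0.67). For PLAGL1 they were the overlapping entries PVRIG2P, PVRIG and STAG3L5P-PVRIG2P-PILRB (r 0.75, 0.75 and 0.74), which may share reads, and for NNAT SOS2, LIMA1 and SMCHD1 (r 0.73, 0.72 and 0.72). No member was among the 3 most like another. Between members themselves, r over the lines ran from -0.32 (PEG10 with CDKN1C) to 0.43 (MEG3 with PLAGL1, where SNU-478 alone has MEG3 on), and H19 with CDKN1C gave 0.42.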

How the data were processed

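Poly(A) RNA-seq libraries, made with a stranded kit per the labels' protocols, are held in 1 deposited table of raw, unscaled counts per RefSeq entry. The submitters' processing notes name hg19 or GRCh37 and, in no stated order, featureCounts, Picard 1.69, TopHat2 2.0.8 and Trimmomatic. Of 24222 entries, 23204 were named from a RefSeq gene table and 348 from GENCODE metadata, and 670 kept their identifiers.

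From the counts, CPM were computed with TMM scaling. For sites (19 lines) and origin (20 lines) the tool was edgeR 4.0.16 under R 4.3.3 (filterByExpr, robust quasi-likelihood tests, two-sided), and the score with limma 3.58.1 (trend, robust, log2 CPM with a prior count of 2, both gene lists left out). Calls use a Benjamini-Hochberg adjusted p under 0.05 over all entries. The fits were tested on simulated data. Pair correlations used log2(CPM + 0.5) and 100000 permutations, exact for 6 lines; a pair needed 3 lines above the floor in each gene, a limit set after seeing the data, which left 6 of 10 pairs. MEG3 with DLK1, PLAGL1 with HYMAI and PEG3 with ZIM2 were too low, and IGF2-AS was not analysed here. Alternatives were RLE scaling, DESeq2 1.42.0, limma-voom, other filters, pseudocounts and thresholds, covariates and leaving out lines.

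All 10 members, every gene of the listed pairs, called genes and up to 4 widest-ranging genes per list, and the 3 most alike entries per member are named (1 of those for PEG10 is not reported here), and further genes after their values were seen. Members and lists were chosen with earlier results of these data known. Whether lines came from separate cultures is not given, so p-values measure the spread between these lines.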

Additional observations from a re-analysis of the deposited data

Results flagged for a closer look

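Within groups of 4 to 10 lines, a line was picked out where its gap to the nearest other line was too large a share of the range of log2(CPM + 0.5) by Dixon's 95% limit. Each gene was examined in each such group, unless all its lines there were at the floor. Of 32 sets of a gene in a group, 5 held such a line, and chance flags about 1 in 20. Sites and origin groups share lines, so these flags are not independent. TKKK stood apart for H19 among the 4 intrahepatic lines at 1719.8 CPM. Mz-ChA-2 stood apart for IGF2 at 4158 CPM, both among the 7 gallbladder and among the 7 metastatic lines. PEG3 was picked out in TGBC14TKB among gallbladder lines (0.283 CPM, 4 counts) and in HuH28 among intrahepatic lines (0.728 CPM, 9 counts), both below the level taken as on. The other 3 intrahepatic lines had 0 PEG3 counts and the other 6 gallbladder lines 0 or 1, so any few counts would be picked out and these 2 carry no weight beside the chance rate.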

How the results depend on the processing

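No paired analysis was possible because the labels give no replicate numbers and each line has 1 library. Over sites, no alternative called a member. By origin, DESeq2 called 1 member (H19). Along the score 1 member (MEST) was called with a prior count of 0.5 and without Mz-ChA-2, OZ or TGBC2TKB, so leaving out single lines gave 0 to 1. The site test called 1 entry in edgeR, 312 in DESeq2 and 0 in limma-voom, and the origin test 0 in edgeR and 181 in DESeq2. Without TGBC14TKB or TKKK the site test called 2. The 774 entries called along the score became 1525 with a total of at least 10 counts as the filter, 497 with repository as a covariate, 352 without HuH28, 500 without SNU-245 and 254 when both and Mz-ChA-2 were left out. The 103 values called on became 65 at a threshold of 5 CPM and 123 at 0.5 CPM, and stayed at 103 with RLE scaling and unscaled. By gene, lines on went at 0.5 CPM from 11 to 17 for IGF2, 1 to 3 for MEG3 and 0 to 1 for PEG3. At 5 CPM they went from 14 to 9 for H19, 11 to 4 for IGF2, 8 to 3 for PLAGL1, 17 to 11 for CDKN1C and 14 to 1 for NNAT.

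Signs that turned were of values that passed no threshold. By origin, the log2 difference of IGF2 was -0.71 with repository as a covariate, -2.38 when Mz-ChA-2, SNU-245 and HuH28 were left out, -1.60 in DESeq2 and -2.27 (without Mz-ChA-2) to 7.54 without single lines. That of PLAGL1 was 1.53 with repository, 0.88 with site and -2.95 to 0.142 (without TGBC18TKB) without single lines. That of MEST was 1.29 with repository, and -1.96 to 0.0734 without single lines, above 0 without G415, HuCCT1, OCUG-1, OZ or SNU-478. Without single lines that of CDKN1C was -0.91 to 0.0586 (without SNU-1196) and that of PEG10 -0.52 (without Sk-ChA-1) to 1.39. The correlation of H19 with IGF2 was 0.22 within RIKEN lines and -0.27 to -0.07 without single lines. Its rho turned above 0 without SNU-308 (0.02), TGBC18TKB (0.07) or TKKK (0.06). PEG10 with SGCE gave 0.86 and 0.50 within KCLB and RIKEN lines, where 6 lines limit the test, and 0.55 to 0.80 without single lines. NNAT with BLCAP gave 0.72 and 0.31 there, 0.53 without the 2 farthest lines, and 0.51 (without EGI-1) to 0.63 without single lines. CDKN1C with PHLDA2 gave -0.22 within RIKEN lines. CDKN1C with KCNQ1OT1 gave 0.0914 without the 2 farthest lines and -0.12 to 0.0703 without single lines, above 0 without SNU-1079, TFK-1 or TKKK. MEST with COPG2 gave 0.00760 with a pseudocount of 2, 0.16 without the 2 farthest lines, 0.29 within KCLB lines, and -0.142 to 0.0692 without single lines, above 0 without G415, HuH28, OZ, TGBC14TKB, TGBC18TKB or TKKK. For these, the cause was not tested. At 1 CPM about 10 to 15 counts stand behind a value, so states near that level are uncertain.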
